A study of Mus musculus with 4 samples.

Results

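The forkhead genes of groups A, C, D and F were represented by 9 members, *Foxa1*, *Foxa2*, *Foxa3*, *Foxc1*, *Foxc2*, *Foxd1*, *Foxd3*, *Foxf1* and *Foxf2*, found by symbol in the feature lists of all 4 libraries, out of 32246 features that the lists share. The libraries were single-cell RNA libraries of gastruloids, aggregates of mouse embryonic stem cells that organize into germ layers and axes in culture, harvested on day 4, day 5, day 6 or day 11 of culture. Each of these days was 1 library made from several pooled gastruloids of a single line, the wild type Zx1 line, so day and library cannot be told apart. All 4 groups shared a pulse of a Wnt agonist before day 4. Cardiogenic factors were added at day 4, were present at days 5 and 6, and had been withdrawn before day 11. With 1 library per day no test was made, and every interval in parentheses is a 95% interval that covers counting error only.

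Forkhead proteins bind DNA through a shared winged helix domain, and the core sequence TGTTTAC is a typical site. The *Foxa* proteins are pioneer factors of the definitive endoderm and its gut, liver and lung derivatives, and *Foxa2* also marks the node, the notochord and the floor plate. *Foxc1* and *Foxc2* act in presomitic and somitic mesoderm, in endothelium and in mesenchyme of the heart and head. *Foxd3* is used by pluripotent cells and again by the neural crest, *Foxd1* is best known from the stroma of the kidney, and *Foxf1* and *Foxf2* are factors of lateral plate and splanchnic mesenchyme.

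After quality limits and doublet removal 6555, 6457, 5254 and 7850 cells were kept of 7324, 7794, 6628 and 9584 barcodes, in order of day. Their median depth was 24160, 28154, 24677.5 and 11433 UMIs, and a UMI, a molecular tag, stands for 1 captured molecule. CPM is the share of a gene in all UMIs summed over a set of cells, scaled to 1000000 UMIs. Levels are compared here within a gene and not between genes. In CPM over a whole library, fewer cells that express a gene and less RNA per cell cannot be told apart. Between 5 and 23 cell barcodes were shared by any pair of libraries.

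Cells were called Epcam-high, Cdh5-high, Twist1-high, Meox1-high or Myl7-high when they held at least 3 UMIs of that marker at 100 CPM or more, or 1000 CPM for *Myl7*, which is found at a low level in many cells. *Epcam* is an epithelial surface protein, *Cdh5* the cadherin of endothelium, *Twist1* a mesenchymal factor, *Meox1* a somite factor and *Myl7* a light chain of cardiac myosin. Epcam-high cells numbered 931, 1250, 178 and 39 on the 4 days, and at least 6 of their 7 listed markers were at least 2 times higher than in the other cells at days 4, 5 and 6. All 7 endothelial markers were raised in the 340 Cdh5-high cells of day 6 and the 271 of day 11, and all 8 cardiac markers in the 638 and 1420 Myl7-high cells of these days. Twist1-high cells (1657, 1891, 2432 and 1552) had 3 to 5 of 6 mesenchymal markers raised. Of the 489 Meox1-high cells of day 6, which had 3 of 5 somite markers raised, 193 were also Twist1-high, and 308 of the Myl7-high cells of day 6 were Twist1-high. The 63 Meox1-high cells of day 11 went against that name, since only *Tcf15* of the 5 somite markers was raised while 4 of 7 endothelial ones were. Sets under 50 cells are described by cells and UMIs.

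Over whole libraries the members did not move as a block. The *Foxc* genes were at their highest at day 6, *Foxf1* and *Foxa2* at day 4, *Foxa3* at day 5 and *Foxd3* at day 11. Of the 9 members, 7 had a mean of at least 1 CPM over the days, and *Foxd3* and *Foxf2* did not. From day 4 to day 5, 1 of these 7 (*Foxa3*) was at least 2-fold higher, against 12.8% of 13291 genes, and 3 (*Foxa1*, *Foxd1* and *Foxf1*) at least 2-fold lower, against 6.53%. Between day 5 and day 6, 4 members were higher (*Foxa1*, *Foxc1*, *Foxc2* and *Foxd1*), with a background of 17.3%, and *Foxa3* was lower, with a background of 7.31%. At day 11 no member was 2-fold above day 6, where 13.1% of genes were, and *Foxa1*, *Foxa2* and *Foxc1* were 2-fold below it, where 6.21% were. That count of 3 was 5 with size factors or without mitochondrial and ribosomal genes in the total, where *Foxa3* and *Foxd1* joined. With all barcodes kept *Foxa1* left it and *Foxd1* joined. *Foxa3* and *Foxd1* were at 0.514 and 0.501 in the main setting, close to the 2-fold limit. The 6.21% is of the main setting, and the share of all genes under these other settings is not given, so the changed counts have no background. The median ratio of the 7 was 0.652 for day 5 over day 4, 2.63 for day 6 over day 5 and 0.501 for day 11 over day 6, beside 1.02, 1.15 and 1.03 over all 13291 genes.

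**Figure D1:**
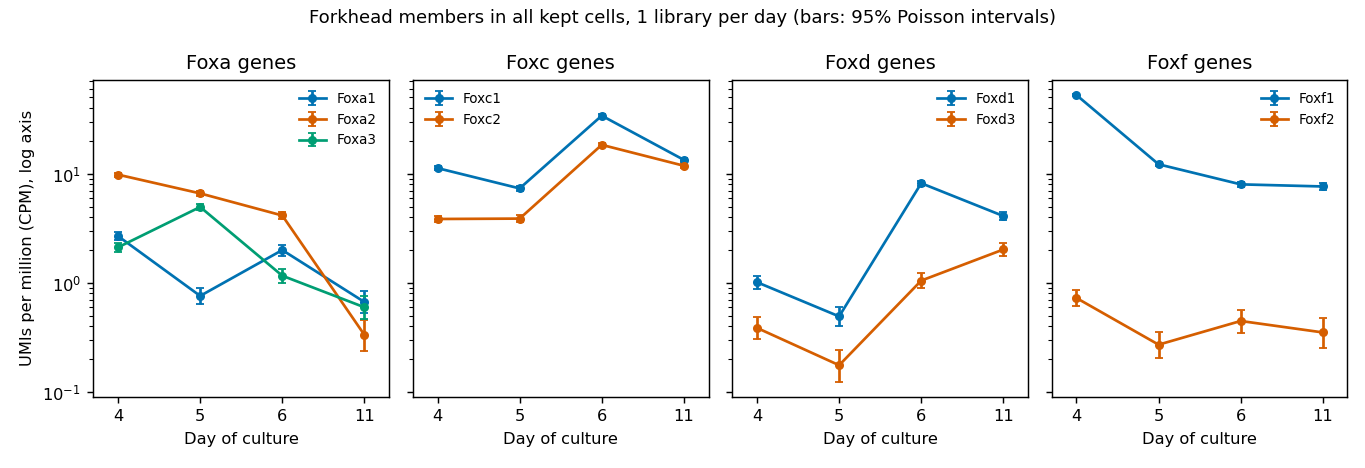
CPM of each of the 9 members over all kept cells (vertical axis, log scale) by day of culture (horizontal axis, evenly spaced by library), with bars for 95% Poisson intervals and 1 library per day. Foxf1 has its highest point at day 4 (52.5 CPM), the Foxc genes theirs at day 6 (34.0 and 18.4 CPM), and all 3 Foxa genes are below 1 CPM at day 11.

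Among the marker-high sets the members fell into separate places. In Epcam-high cells of day 4, 4 of the 8 members measurable there (*Foxa1*, *Foxa2*, *Foxa3* and *Foxd3*) were at least 4-fold above the other cells of the day, against 6.18% of 12751 genes, and 3 (*Foxc1*, *Foxc2* and *Foxf1*) were at least 4-fold below, against 2.06%. Of these, *Foxa1*, *Foxa3* and *Foxd3* reached 1 CPM only in the set, so they were counted through the cells where they were high. At day 5 the 3 *Foxa* genes were above by that fold (background 5.05%) and *Foxc2* was below (0.768%). At day 6 the 3 *Foxa* genes were again above (6.34%), and *Foxc2* and *Foxf1* below (5.13%). At days 5 and 6 the 3 *Foxa* genes were below 1 CPM in the other cells and were counted through the set alone. Cdh5-high cells of day 6 held 5 of 8 members at least 4-fold below the others (*Foxa1*, *Foxa2*, *Foxa3*, *Foxd1* and *Foxd3*, background 9.53%). Myl7-high cells of day 6 held the same 5 that low (4.59%), and Meox1-high cells 4 (the *Foxa* genes and *Foxd3*, 4.76%). Twist1-high cells of day 6 also held the 3 *Foxa* genes that low (3.50%). The other cells in each case included Epcam-high cells, which held 93.6%, 77.7% and 93.7% of *Foxa1*, *Foxa2* and *Foxa3* UMIs. The *Foxa* part of these day 6 counts is thus 1 observation and not several. At day 11 *Foxc2* was at least 4-fold higher in Cdh5-high cells (4.76%), a call that was lost with all barcodes kept (3.93) and with the limit of the set doubled (3.83), with *Foxd1*, *Foxd3* and *Foxf1* at least 4-fold lower (16.2%). In Myl7-high cells of day 11, 5 of 5 measurable members were at least 4-fold lower (*Foxc1*, *Foxc2*, *Foxd1*, *Foxd3* and *Foxf1*), where 12.7% of genes were. Several members called lower were below 1 CPM in the set and were counted through the other cells alone. At day 11 they were *Foxd1* and *Foxd3* in Myl7-high cells, and these and *Foxf1* in Cdh5-high cells. At day 6 they were the *Foxa* genes and *Foxd3* wherever lower, *Foxd1* in Cdh5-high and *Foxf1* in Epcam-high cells. *Foxc2* in Epcam-high cells of days 4 and 5 was another.

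**Figure D2:**
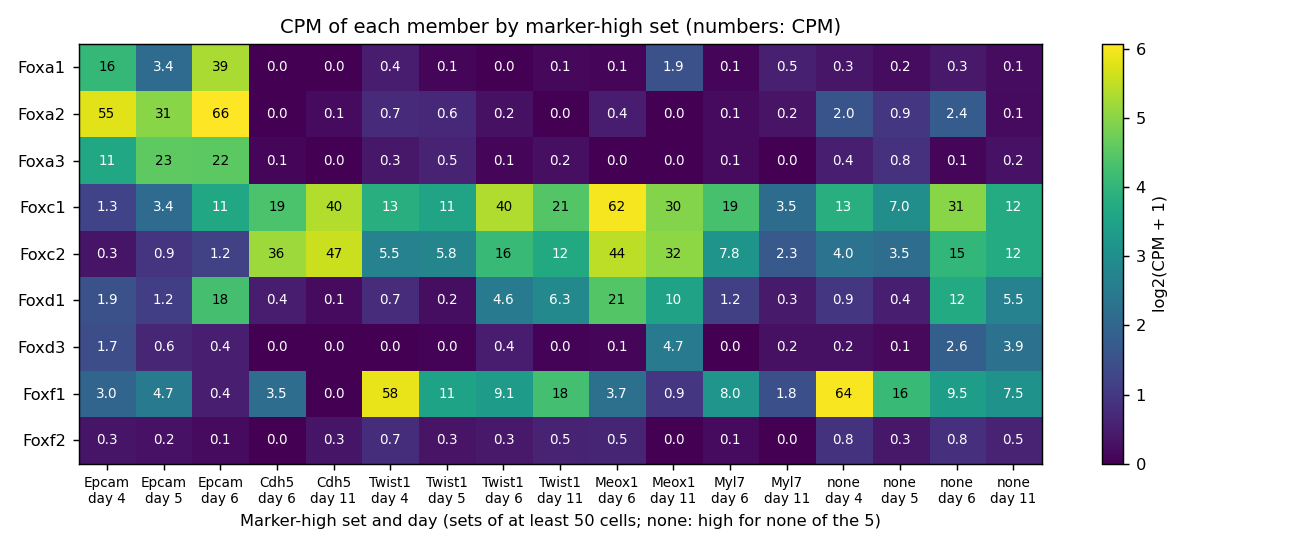
CPM of each member (rows, printed in the cells, with color on a log2(CPM + 1) scale) in each marker-high set of at least 50 cells and in the cells high for none of the 5 markers (columns, by day). The Foxa rows are bright in the Epcam columns, the Foxc rows are brightest in the Meox1 column of day 6 (62.4 and 43.5 CPM) and the Cdh5 column of day 11, and Foxf1 in the Twist1 and "none" columns of day 4.

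The *Foxa* genes were found mainly in Epcam-high cells. The sequences before their starts are shown because the 3 genes had alike levels across sets, and each is the 250 bases before the gene start in RefSeq on GRCm38.p6, the patch release of the mm10 build that the submitters' notes name. The GENCODE vM21 annotation starts *Foxa1* farther upstream, so the *Foxa1* window lies within the gene model of that annotation. All 3 genes lie on the minus strand, at chr12:57546112-57546361 for *Foxa1*, chr2:148046970-148047219 for *Foxa2*, where the outermost of 3 starts was taken, and chr7:19023540-19023789 for *Foxa3*. Capitals mark a match, on either strand, to the forkhead core TGTTTAC or its variant TGTTTGC.
Foxa1: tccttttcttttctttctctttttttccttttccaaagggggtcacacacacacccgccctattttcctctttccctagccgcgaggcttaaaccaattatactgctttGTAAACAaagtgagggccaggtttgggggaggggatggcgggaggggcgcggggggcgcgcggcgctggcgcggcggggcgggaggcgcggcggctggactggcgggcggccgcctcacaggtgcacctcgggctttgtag
Foxa2: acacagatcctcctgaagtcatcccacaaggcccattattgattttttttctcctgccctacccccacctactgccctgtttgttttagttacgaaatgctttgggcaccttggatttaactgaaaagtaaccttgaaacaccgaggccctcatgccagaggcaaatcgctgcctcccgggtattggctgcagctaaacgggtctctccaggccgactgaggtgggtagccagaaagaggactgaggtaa
Foxa3: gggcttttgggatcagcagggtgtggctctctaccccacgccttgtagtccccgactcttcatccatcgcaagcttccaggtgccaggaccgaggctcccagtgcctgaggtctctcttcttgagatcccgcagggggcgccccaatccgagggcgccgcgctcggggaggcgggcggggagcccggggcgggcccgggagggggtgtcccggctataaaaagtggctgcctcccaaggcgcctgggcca
*Foxa1* had 1 match, GTAAACA, the reverse strand of TGTTTAC, whose start lies 141 bases before the RefSeq start. *Foxa2* and *Foxa3* had none in these windows. Of 32851 windows of the same length 7.29% held either sequence (3.17% TGTTTAC and 4.30% TGTTTGC), and of the 7 members with a window only that of *Foxa1* did. The letters are a description and not a measured site.

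*Foxa2* was found at 9.80 (9.36 to 10.3) CPM at day 4, 6.60 (6.25 to 6.97) at day 5, 4.14 (3.82 to 4.48) at day 6 and 0.334 (0.236 to 0.458) at day 11. It was highest at day 4 and lower at each later day, with a ratio of 0.0341 (0.0240 to 0.0470) for day 11 over day 4. In Epcam-high cells its level was 54.6 (52.0 to 57.3) CPM at day 4, 30.9 (29.2 to 32.7) at day 5 and 66.5 (60.7 to 72.7) at day 6, and 1.43, 0.657 and 0.969 CPM in the other cells. Within the whole set the level was highest at day 6, but among its Pou5f1-low cells, which leave out cells high for *Pou5f1*, it was higher at day 4 than at day 6. Epcam-high cells were 14.2%, 19.4% and 3.39% of kept cells on these days. They held 87.7% of *Foxa2* UMIs at day 4, 92.0% at day 5 and 77.7% at day 6.

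*Foxa1* was found at 2.68 (2.45 to 2.92) CPM at day 4, 0.760 (0.643 to 0.891) at day 5, 2.00 (1.78 to 2.24) at day 6 and 0.668 (0.526 to 0.836) at day 11. In Epcam-high cells it was at 15.5 (14.2 to 17.01), 3.38 (2.82 to 4.00) and 38.6 (34.2 to 43.4) CPM at days 4, 5 and 6. Of these 3 days it was lowest at day 5, within the set as well as in the library. In the other cells it was at 0.279, 0.119 and 0.133 CPM. The ratio of the 2 at day 6 was 289.5 (182 to 488), and the day 6 set held 93.6% of the library's *Foxa1* UMIs. With doublets left in that ratio was 151.

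*Foxa3* was found at 2.12 (1.92 to 2.33) CPM at day 4, 4.95 (4.65 to 5.27) at day 5, 1.16 (0.996 to 1.35) at day 6 and 0.598 (0.464 to 0.758) at day 11. It was the only member of the 7 that was 2-fold higher at day 5 than at day 4 (2.34 (2.08 to 2.63)), and then 2-fold lower at day 6 (0.235 (0.199 to 0.276)). Within Epcam-high cells *Foxa3* was at 11.5 (10.3 to 12.7) CPM at day 4, 22.6 (21.2 to 24.2) at day 5 and 22.5 (19.2 to 26.2) at day 6, so days 5 and 6 had overlapping intervals there while the library level differed. The set was 1250 cells at day 5 and 178 at day 6.

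Epcam-high cells of days 4 and 5 also held cells high for *Pou5f1*, a pluripotency factor, so they were split by it. The state of the Pou5f1-high cells was not tested. At day 4 the 445 Pou5f1-low cells held *Foxa1* at 29.8 (27.0 to 32.8), *Foxa2* at 93.0 (88.0 to 98.3) and *Foxa3* at 20.3 (18.0 to 22.8) CPM. The 486 Pou5f1-high cells held them at 3.55 (2.69 to 4.59), 22.3 (20.04 to 24.7) and 4.04 (3.12 to 5.14) CPM. All 3 genes were thus higher in the Pou5f1-low cells, with intervals that do not overlap. The Pou5f1-low cells of day 6, 162 cells, held the 3 genes at 43.3 (38.4 to 48.7), 73.0 (66.5 to 79.9) and 24.6 (20.9 to 28.8) CPM, so in Pou5f1-low cells *Foxa2* was higher at day 4 than at day 6. At day 5 the Pou5f1-low cells were again above the Pou5f1-high cells, with *Foxa2* at 38.2 (36.0 to 40.4) in 999 Pou5f1-low cells and 7.44 (5.79 to 9.42) CPM in 251 Pou5f1-high cells.

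The 351 cells of day 4 high for *Sox17*, an endoderm factor at this stage, held the highest *Foxa2* level of any set, 105 (99.5 to 111) CPM. Of the 351 cells, 323 were also in at least 1 of the 5 marker-high sets. In the 351 cells *Foxa1* was at 31.6 (28.5 to 34.9) and *Foxa3* at 22.4 (19.8 to 25.2) CPM. Of these cells 89.5% held a *Foxa2* UMI, and 39.0% after each cell was thinned to 5000 UMIs, at a median depth of 26606 UMIs before thinning. In Twist1-high cells of day 4, with a median of 27177 UMIs, 1.27% held one, and 0.181% after thinning. At day 5 the 327 Sox17-high cells held *Foxa2* at 48.4 (44.4 to 52.6) CPM. At day 6 the 248 Sox17-high cells, where *Sox17* also marks endothelium, held it at 11.9 (9.92 to 14.2) CPM.

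*Foxa2* was also found in cells high for T (Brachyury, a factor of the streak, tail bud and notochord), a set that overlaps those above. Of the 640 T-high cells of day 4, 266 were also in at least 1 of the 5 marker-high sets. They held 374 *Foxa2* UMIs, while all cells outside the Epcam-high set held 230, so part of the 374 lay in Epcam-high cells. *Foxa2* was at 21.3 (19.2 to 23.5) CPM in 640 T-high cells of day 4, 2.81 (1.49 to 4.80) in 163 of day 5 and 23.4 (17.7 to 30.4) in 60 of day 6. *Foxa3* was at 1.477 (0.965 to 2.16), 2.16 (1.03 to 3.97) and 1.67 (0.456 to 4.29) CPM in the same cells. The T-high sets of days 4 and 6 were thus above their libraries in *Foxa2* and that of day 5 was below, while the *Foxa3* intervals held the library level at days 4 and 6. In Sox2-high cells of day 6, 398 cells high for a factor of neural tissue and the tail bud, *Foxa2* was at 10.2 (8.64 to 11.9) CPM and accounted for 25% of its UMIs of that day.

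At day 11 the *Foxa* genes rested on very few cells. The 39 kept Epcam-high cells held 64 of 76 *Foxa1* UMIs, 27 of 38 *Foxa2* UMIs and 51 of 68 *Foxa3* UMIs. The 27 kept cells high for *Afp*, a protein of yolk sac and fetal liver, held 28, 16 and 44 of them. *Foxa3* had 0 UMIs in 1420 Myl7-high cells, which allows up to 0.105 CPM, and *Foxa2* had 0 in 1552 Twist1-high cells, which allows up to 0.136 CPM. *Foxa1* had 13 UMIs in Myl7-high cells, all in 2 cells, and 4 of the Epcam-high cells were also Myl7-high. Cells high for none of the 5 markers held 8 of the 76 *Foxa1* UMIs. With the 64 of the Epcam-high cells this leaves fewer than 13. Most of the 13 thus lay in cells high for both markers.

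The day 11 values changed with the quality limits. Of 76 Epcam-high barcodes 37 were removed, 21 of them by doublet score, and those removed had a median of 40779 UMIs. They held 129 *Foxa1*, 98 *Foxa2* and 81 *Foxa3* UMIs, more than the 39 kept. With every barcode over 200 genes included the day 11 levels were 1.45 CPM for *Foxa1*, 0.979 for *Foxa2* and 1.20 for *Foxa3*, and the ratios of day 11 to day 4 were 0.533, 0.0971 and 0.559 in place of 0.249, 0.0341 and 0.282. *Foxa1* was then no longer 2-fold below day 6 (0.646). All 3 genes were below their day 4 level either way. At days 4, 5 and 6 the limits kept 931 of 1063, 1250 of 1459 and 178 of 220 Epcam-high barcodes.

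**Figure D3:**
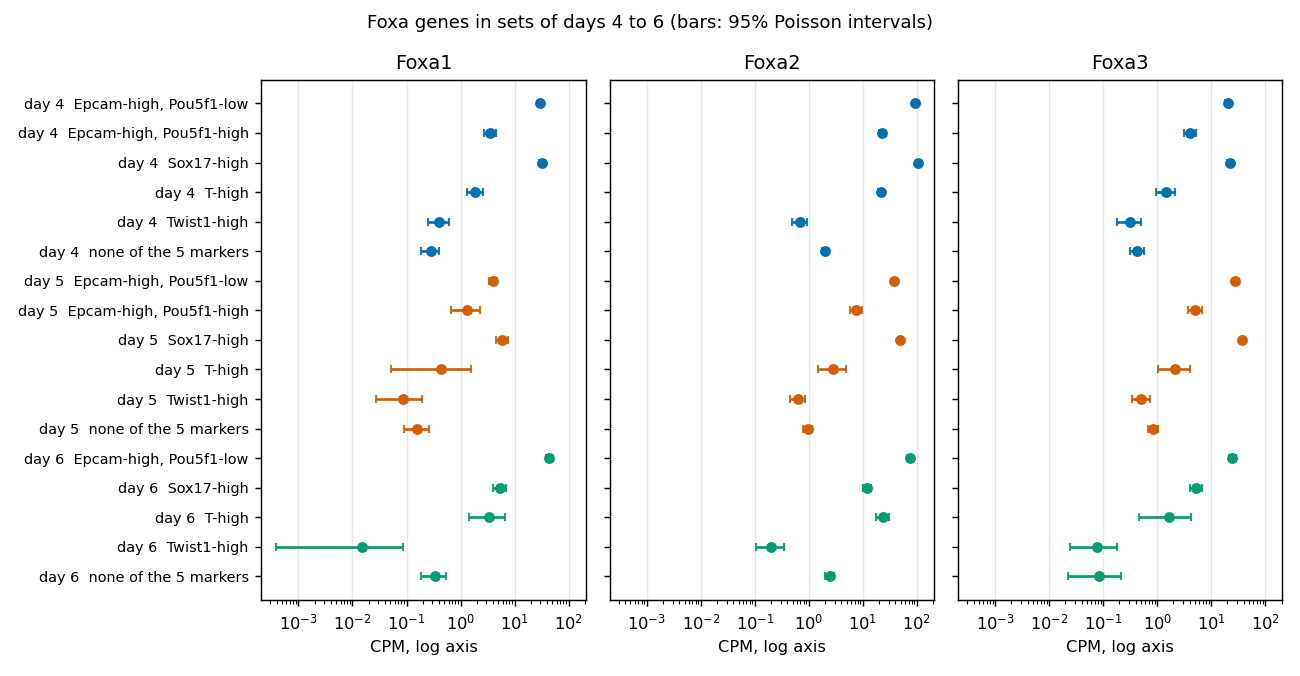
CPM (horizontal axis, log scale) of Foxa1, Foxa2 and Foxa3 in marker-high sets of days 4, 5 and 6 (rows), with 95% Poisson intervals. The day 6 Pou5f1-high part of the Epcam set had under 50 cells and is not drawn. The Pou5f1-low Epcam-high and Sox17-high sets of day 4 lie farthest right for Foxa2 (93.0 and 105 CPM), and T-high cells hold Foxa2 at 21.3 CPM at day 4 and 23.4 CPM at day 6.

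*Foxc1* was found at 11.2 (10.8 to 11.7) CPM at day 4, 7.33 (6.96 to 7.72) at day 5, 34.0 (33.1 to 34.9) at day 6 and 13.4 (12.7 to 14.1) at day 11. Its highest level was at day 6, with a ratio of 4.64 (4.37 to 4.92) over day 5 and of 0.394 for day 11 over day 6. At day 11 it was 1.19 (1.11 to 1.27) times its day 4 level, and this direction turned with size factors between days, which multiply every such ratio by 0.770 (0.916 for *Foxc1*). Over all 13291 genes the median of that ratio was 1.22. A *Foxc1* UMI was found in 15.4% of day 6 cells thinned to 5000 UMIs (48.1% unthinned, median depth 24677.5), against 2.76% of Sox2-high cells (19.6% unthinned, median depth 35503).

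By set, *Foxc1* at day 6 was at 62.4 (58.5 to 66.6) CPM in Meox1-high, 39.8 (38.3 to 41.3) in Twist1-high, 19.3 (17.04 to 21.8) in Cdh5-high, 18.8 (16.7 to 21.0) in Myl7-high and 11.3 (8.99 to 14.0) in Epcam-high cells. The neighbours in this order had separate intervals, apart from Cdh5-high and Myl7-high cells. At day 4 the highest *Foxc1* level was in the 87 cells high for *Tbx6*, a factor of presomitic mesoderm, at 60.8 (51.1 to 71.8) CPM, followed by the 354 cells high for *Osr1*, a factor of intermediate and lateral mesoderm, at 34.2 (30.7 to 38.0) CPM. By day 6 the Osr1-high cells held 58.2 (54.1 to 62.6) CPM, close to the Meox1-high level with overlapping intervals. Of the Osr1-high cells, 185 of 354 at day 4 and 247 of 413 at day 6 were also in at least 1 of the 5 marker-high sets. *Foxc1* was thus found in paraxial as well as in intermediate and lateral marker sets, which may share cells.

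At day 11 the order had changed. *Foxc1* was at 40.4 (35.9 to 45.3) CPM in Cdh5-high cells and 11.5 in the others, a ratio of 3.51 (3.08 to 3.99), where at day 6 the same ratio was 0.546 (0.480 to 0.619). Twist1-high cells held 20.8 (18.9 to 22.8) CPM and Myl7-high cells 3.45 (2.81 to 4.204) CPM. The Cdh5-high set went from below to above the remaining cells while its own level went from 19.3 to 40.4 CPM.

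*Foxc2* was found at 3.85 (3.57 to 4.13) CPM at day 4, 3.88 (3.61 to 4.16) at day 5, 18.4 (17.7 to 19.1) at day 6 and 11.8 (11.2 to 12.5) at day 11. Days 4 and 5 had overlapping intervals, and their ratio of 1.01 turned under each of 5 alternatives (0.917 to 0.990). Day 6 was 4.74 (4.37 to 5.14) times day 5, and day 11 was 3.07 (2.81 to 3.37) times day 4. At day 6 it was at 43.5 (40.2 to 47.0) CPM in Meox1-high, 35.7 (32.5 to 39.0) in Cdh5-high, 16.3 (15.3 to 17.3) in Twist1-high, 7.81 (6.51 to 9.29) in Myl7-high and 1.24 (0.568 to 2.36) in Epcam-high cells. *Foxc2* thus placed Cdh5-high above Twist1-high cells, the reverse of *Foxc1* at the same day.

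In endothelial-marker cells *Foxc2* was found on every day that had such cells. The 46 Cdh5-high cells of day 5 held 49 *Foxc2* UMIs, 21 of the cells having at least 1. The Cdh5-high level of day 6 was 2.14 (1.93 to 2.36) times that of the other cells. At day 11 it was 47.2 (42.3 to 52.4) CPM against 9.41, a ratio of 5.02 (4.42 to 5.68), and the 271 cells held 25.5% of the library's *Foxc2* UMIs. After thinning, 15.5% of them held a UMI (41.3% unthinned, median depth 22832), against 0.523% of Sox2-high cells (0.687% unthinned, median depth 14256.5).

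The 63 Meox1-high cells of day 11 held *Foxc1* at 29.9 (20.4 to 42.1) and *Foxc2* at 31.7 (22.0 to 44.3) CPM, with intervals that overlap those of the Cdh5-high cells. In these cells the 7 endothelial markers summed to 294 CPM, against 149 in the other cells and 1682 in Cdh5-high cells, and 6 of the cells were Cdh5-high. The part of that in the *Foxc* levels was not tested. By other markers, *Foxc2* at day 11 was at 33.3 (27.8 to 39.5) CPM in 215 cells high for *Wt1*, a mesothelial and kidney factor, where *Foxc1* was at 18.6 (14.5 to 23.3). Of these 215 cells, 76 were also in at least 1 of the 5 marker-high sets. In 445 cells high for *Tcf21*, a factor of mesenchyme and head muscle progenitors, *Foxc2* was at 16.4 (13.3 to 19.9) and *Foxc1* at 23.6 (19.9 to 27.8) CPM.

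**Figure D4:**
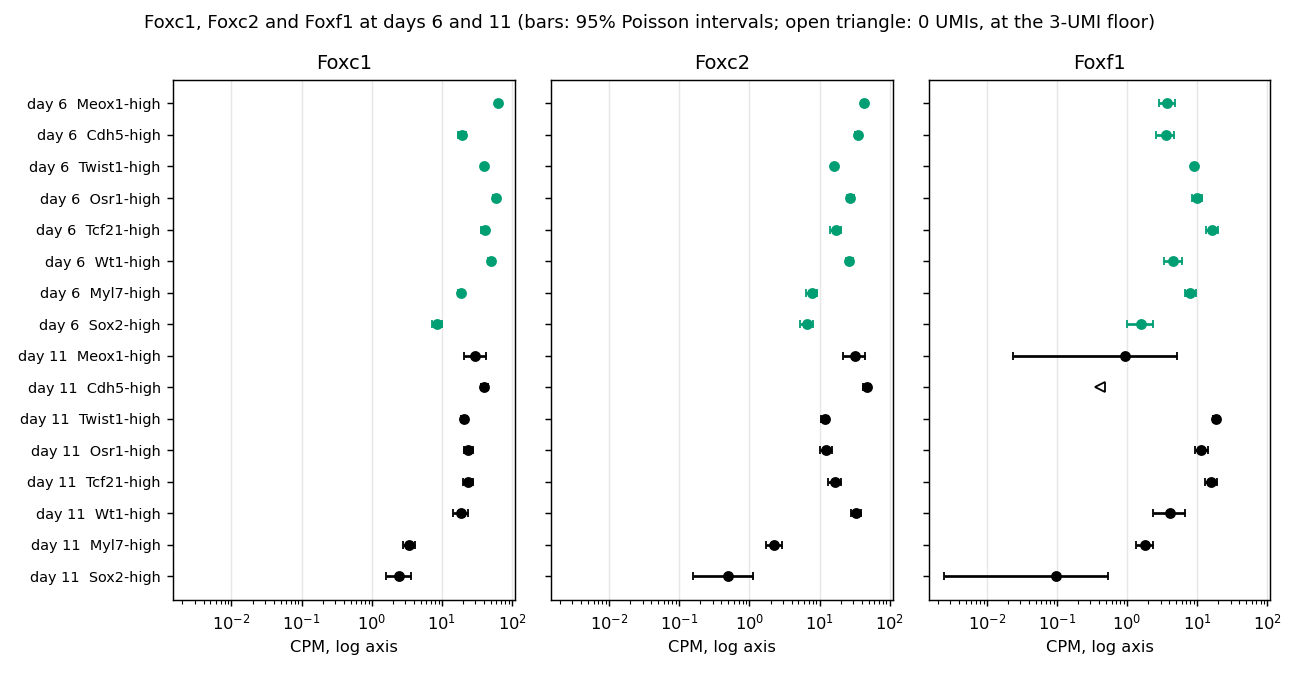
CPM (horizontal axis, log scale) of Foxc1, Foxc2 and Foxf1 in marker-high sets of days 6 and 11 (rows), with 95% Poisson intervals and an open triangle at the limit of 3 UMIs where no UMI was found. Foxc1 and Foxc2 reach 40.4 and 47.2 CPM in Cdh5-high cells of day 11, where Foxf1 has 0 UMIs.

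*Foxf1* was found at 52.5 (51.5 to 53.5) CPM at day 4, 12.2 (11.7 to 12.7) at day 5, 7.98 (7.54 to 8.45) at day 6 and 7.64 (7.14 to 8.16) at day 11. The day 5 level was 0.232 (0.222 to 0.243) times that of day 4, and 20.02% of day 4 cells but 5.50% of day 5 cells held a UMI after thinning (52.6% and 22.0% unthinned). In Sox2-high cells, with median depths of 26405 and 31921.5 UMIs, 3.93% and 0.820% did (10.3% and 2.87% unthinned). Day 11 over day 6 was a ratio of 0.957 (0.876 to 1.04), an interval that holds 1, and with the mean of per-cell CPM it turned to 1.03.

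At day 4 *Foxf1* was spread over the cells outside the Epcam-high set. Twist1-high cells held 57.8 (55.8 to 59.8) CPM, cells high for none of the 5 markers 63.6 (62.1 to 65.1), and Epcam-high cells 2.95 (2.37 to 3.64). The ratio of Twist1-high to all other cells was 1.15 (1.10 to 1.20), and it turned to 0.976 when the limit of the set was doubled. Isl1-high cells, 261 cells high for a factor of heart progenitors, held 57.7 (52.1 to 63.7) CPM, and Tbx6-high cells 16.2 (11.4 to 22.3). In the presomitic marker set of day 4 *Foxf1* was thus below the library level and *Foxc1* above it.

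At day 6 *Foxf1* was highest in Tcf21-high cells, 16.2 (13.3 to 19.5) CPM in 278 cells, and in 582 Isl1-high cells, 14.3 (12.4 to 16.3) CPM. Twist1-high cells held 9.06 (8.35 to 9.82) and Myl7-high cells 7.99 (6.68 to 9.49) CPM, with overlapping intervals, and Meox1-high cells 3.74 (2.83 to 4.86). At day 11 Twist1-high cells stood out, at 18.3 (16.5 to 20.2) CPM against 5.08 in the others, a ratio of 3.601 (3.14 to 4.12), and they held 46.4% of the UMIs. Tcf21-high cells of day 11 held 15.9 (12.8 to 19.4) and Myl7-high cells 1.78 (1.32 to 2.34) CPM. No *Foxf1* UMI was found in the 271 Cdh5-high cells of day 11, which allows up to 0.413 CPM, where at day 6 the Cdh5-high level was 3.54 (2.60 to 4.70) CPM.

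*Foxf2* was near the limit of detection throughout, at 0.726 (0.611 to 0.858) CPM at day 4, 0.272 (0.204 to 0.354) at day 5, 0.448 (0.347 to 0.568) at day 6 and 0.352 (0.251 to 0.479) at day 11. It was found in 131, 53, 60 and 33 cells on the 4 days, of which 5, 1, 5 and 5 held 2 or more UMIs. Its highest levels in a set were 1.59 (0.515 to 3.70) CPM in 163 Isl1-high cells of day 11, 5 UMIs in 3 cells, and 1.59 (0.969 to 2.45) CPM in 413 Osr1-high cells of day 6, 20 UMIs in 15 cells, beside 1.45 (0.693 to 2.66) in Tcf21-high cells. Among the 5 marker-high sets its intervals overlapped between every pair of neighbours in the order of levels within a day, apart from Twist1-high and Epcam-high cells of day 4 (0.736 and 0.266 CPM).

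Several of these genes are neighbours in the genome. In the GENCODE vM21 annotation on GRCm38, *Foxf1* lies at chr8:121084386-121088144 and *Foxc2* at chr8:121116171-121118895, 28.0 kb apart on the same strand. *Foxf2* lies at chr13:31625816-31631403 and *Foxc1* at chr13:31806633-31812476, 175 kb apart on the same strand. The long noncoding RNA *Fendrr* starts 1.28 kb from *Foxf1* on the opposite strand. *Fendrr* was at 5.47, 1.14, 0.534 and 0.914 CPM on the 4 days, highest at day 4 as *Foxf1* was. After thinning, 47 of 152 Fendrr-positive cells of day 4 and 22 of 38 of day 11 held *Foxf1*, which 20.02% and 2.93% of all cells did. A model on the same strand that spans *Foxf1* and *Foxc2*, *Gm20388*, is not in the feature lists, so it could not be analysed here.

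*Foxd1* was found at 1.01 (0.876 to 1.17) CPM at day 4, 0.493 (0.400 to 0.601) at day 5, 8.18 (7.73 to 8.65) at day 6 and 4.10 (3.73 to 4.48) at day 11. The ratio of day 6 to day 5, 16.6 (13.5 to 20.6), was the highest of any member, and day 11 was 0.501 (0.449 to 0.558) times day 6. At day 6 it was at 20.9 (18.6 to 23.3) CPM in Meox1-high and 18.5 (15.5 to 21.9) in Epcam-high cells, with overlapping intervals. Twist1-high cells held 4.61 (4.11 to 5.17), Myl7-high cells 1.23 (0.751 to 1.90) and Cdh5-high cells 0.376 (0.122 to 0.878) CPM. *Foxd1* was thus found in somite-marker and epithelial cells of day 6 and was scarce in the cardiac and endothelial ones.

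The highest *Foxd1* level of any set was in the 60 T-high cells of day 6, 57.4 (48.2 to 67.8) CPM, with 11.2% of its UMIs, and T-high cells of day 4 held 3.35 (2.55 to 4.32) CPM. Pax3-high cells of day 6, 194 cells high for a factor of the dermomyotome and dorsal neural tube, held 22.2 (18.8 to 26.1) CPM, and Sox2-high cells 14.4 (12.5 to 16.4). Cells high for none of the 5 markers held 48.0% of *Foxd1* UMIs at day 6 and 65.9% at day 11. At day 11 *Foxd1* was at 8.64 (5.98 to 12.1) in Wt1-high, 8.59 (6.42 to 11.3) in Tcf21-high and 6.26 (5.26 to 7.40) CPM in Twist1-high cells, while Sox2-high and Pax3-high cells had 0.585 (0.215 to 1.27) and 0.373 (0.0770 to 1.09). The neural and *Pax3* marker sets that held *Foxd1* at day 6 were thus nearly without it at day 11, and Tcf21-high cells went the other way, from 0.868 (0.318 to 1.89) CPM.

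*Foxd3* was found at 0.387 (0.304 to 0.485) CPM at day 4, 0.176 (0.123 to 0.245) at day 5, 1.05 (0.891 to 1.23) at day 6 and 2.02 (1.77 to 2.30) at day 11. At day 4 the 911 Pou5f1-high cells held 69 of its 74 UMIs, at 2.58 (2.01 to 3.27) CPM, and the 407 Sox2-high cells 3.76 (2.78 to 4.97) CPM. In Twist1-high cells of day 4 no *Foxd3* UMI was found, which allows up to 0.0552 CPM. At day 5 Pou5f1-high cells held 23 of 35 UMIs.

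At day 6 the place of *Foxd3* was another. The 13 cells high for *Sox10*, a factor of the neural crest, held 68 of 157 *Foxd3* UMIs (43.3%), in 11 of the 13 cells, and the 21 Pou5f1-high cells held 3. At day 11 the 39 Sox10-high cells held 89 of 230 UMIs (38.7%), in 31 of the 39 cells. Pax3-high cells of day 6 held 4.15 (2.76 to 6.00) CPM and Sox2-high cells 3.09 (2.27 to 4.10), and at day 11 Pax3-high cells held 1.12 (0.512 to 2.13), Sox2-high cells 2.54 (1.66 to 3.71) and 120 cells high for *Myod1*, a myogenic factor, 5.56 (3.18 to 9.03) CPM. Cells high for none of the 5 markers held 94.8% of the day 11 UMIs. No *Foxd3* UMI was found in the Cdh5-high cells of days 6 and 11, which allows up to 0.226 and 0.413 CPM.

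**Figure D5:**
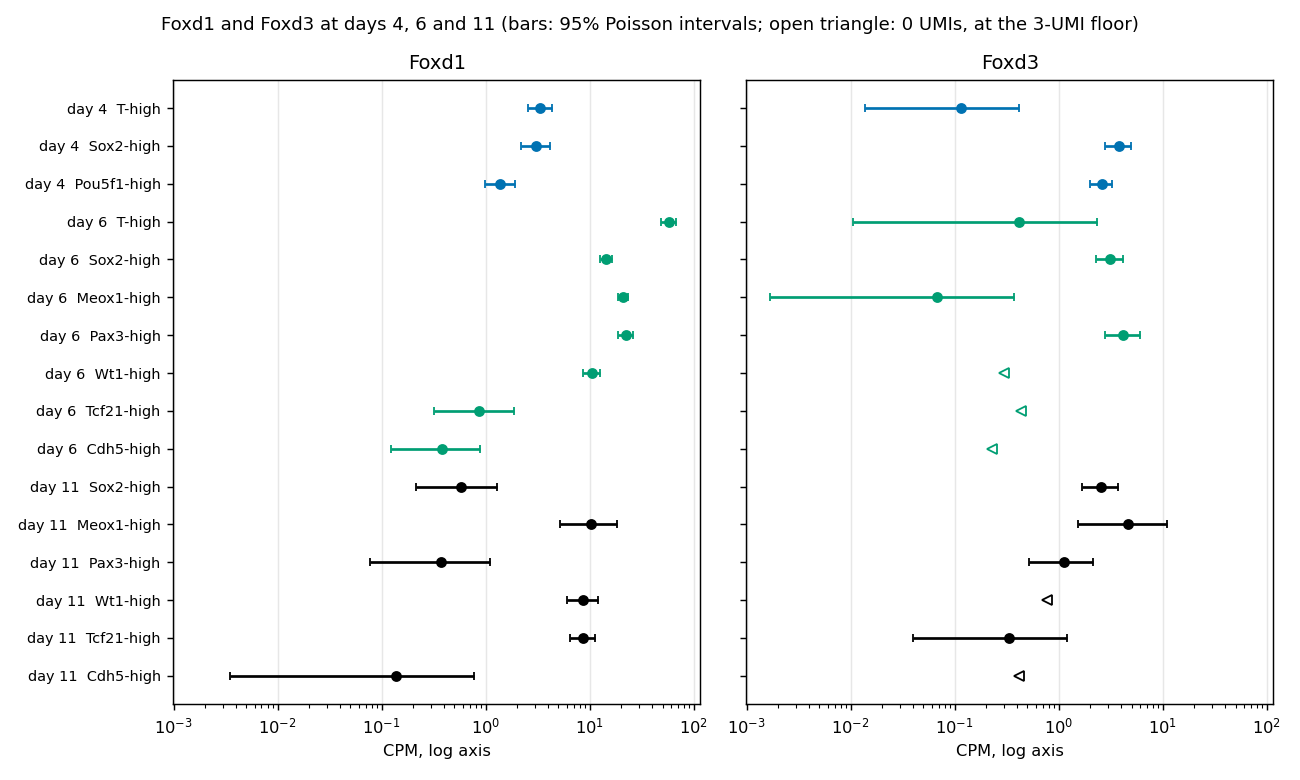
CPM (horizontal axis, log scale) of Foxd1 and Foxd3 in marker-high sets of days 4, 6 and 11 (rows), with 95% Poisson intervals and an open triangle at the limit of 3 UMIs where no UMI was found. Foxd1 is highest in T-high cells of day 6 (57.4 CPM), and Foxd3, whose Sox10-high cells are too few to be drawn, has 0 UMIs in Cdh5-high cells of days 6 and 11.

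Pairs of members were counted in the same cells after thinning to 5000 UMIs. *Foxa1* and *Foxa2* were found together in 28 cells of day 4, 36.8% of the Foxa1-positive cells, where 3.16% of all cells held *Foxa2*. *Foxa2* and *Foxa3* met in 34 cells of day 5, 23.8% of the Foxa3-positive cells, where 2.76% of all cells held *Foxa2*. *Foxa2* and *Sox17* met in 110 cells of day 4, 53.1% of the Foxa2-positive cells, where 4.70% of all cells held *Sox17*, and *Foxa2* and T in 41 cells, 19.8%, where 11.0% held T. Foxa2-positive cells were thus found with *Sox17* more than with T at day 4.

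*Foxc1* and *Foxc2* met in 78 cells of day 6, 19.0% of the Foxc2-positive cells, where 15.4% of all cells held *Foxc1*, and in 61 cells of day 11, 15.1%, where 6.41% did. *Foxc2* met *Cdh5* in 47 cells of day 11, 11.6% of the Foxc2-positive cells, where 3.40% of all cells held *Cdh5*. *Foxc2* and its neighbour *Foxf1* met in 23 cells of day 4, 16.9% of the Foxc2-positive cells, where 20.02% of all cells held *Foxf1*. *Foxd1* and *Foxd3* met in no cell on any day, among at most 149 Foxd1-positive and 51 Foxd3-positive cells in a day, and products of their shares give under 1 cell for each day. *Foxd3* met *Pou5f1* in 9 of its 10 positive cells of day 4, where 17.2% of all cells held *Pou5f1*. It met *Sox10* in 15 of its 51 of day 11, where 0.505% of all cells held *Sox10*.

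By group, cells positive for any *Foxa* gene and cells positive for any *Foxc* gene met in 2 cells at day 4 (of 296 and 480), 8 at day 5 (of 299 and 351), 8 at day 6 (of 88 and 1139) and 0 at day 11 (of 26 and 826). These were 0.676%, 2.68%, 9.09% and 0% of the Foxa-positive cells. Of all cells 7.32%, 5.44%, 21.7% and 11.0% were Foxc-positive. With 26 Foxa-positive cells at day 11, the 0 there says little. The *Foxc* and *Foxf* groups met in 89 cells at day 4, 18.5% of the Foxc-positive cells, where 20.3% of all cells were Foxf-positive. At day 6 the *Foxc* group met the *Foxd* group in 52 cells, 32.1% of the Foxd-positive cells, where 21.7% of all cells were Foxc-positive. Between 68.8% and 84.5% of thinned cells held no UMI of any of the 9 members, and 3 was the most found in 1 cell.

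Levels of log2(CPM + 1) were correlated over the 47 sets of at least 50 cells of the 4 days as a description. The sets of a day share a library and many share cells, so they are not independent points. *Foxa2* had a Pearson correlation of 0.913 with *Foxa3* and 0.875 with *Foxa1*, and *Foxa1* one of 0.807 with *Foxa3*. *Foxc1* and *Foxc2* stood at 0.847 and *Foxf1* and *Foxf2* at 0.634. The neighbours *Foxc2* and *Foxf1* stood at 0.307 and *Foxd1* and *Foxd3* at 0.0964, so group A and C members were alike within their group and group D members were not. Group F was less clear, since *Foxc1* stood at 0.501 with *Foxf2* and 0.464 with *Foxf1*, and *Foxf2* was near the limit of detection.

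Among 8046 other genes the 3 most like *Foxa2* were *Cpn1* (0.936), the epithelial polarity gene *Crb3* (0.935) and the serine protease gene *Tmprss2* (0.933). *Tmprss2* was also the gene most like *Foxa3* (0.964), followed by *Cpn1* (0.941) and *Spink1* (0.941), and *Cpn1* that most like *Foxa1* (0.866), followed by *Hdac6* (0.835) and *Slc16a1* (0.807). *Cpn1* was thus among the 3 for each *Foxa* gene. For *Foxc1* the 3 were *Hmga2* (0.814), *Nck2* (0.807) and *Slc35a4* (0.805), and for *Foxc2* *Igfbp4* (0.869), *Cnrip1* (0.857) and *Amotl1* (0.856).

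For *Foxd1* they were *Hoxa10*, a gene of the posterior axis (0.751), *Gdf11* (0.723) and the hedgehog receptor gene *Ptch1* (0.721). For *Foxd3* they were *Cenpv* (0.746), *Eif2s2* (0.737) and *Jam2* (0.715). *Foxf1* was most like *Prdm6* (0.762), *Rgs5* (0.707) and the hyaluronan synthase gene *Has2* (0.702). *Foxf2* was most like *Bbx* (0.648), with *Rgs5* (0.587) and *Has2* (0.571) again among the 3.

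Genes known to act beside the members were read on the same scale. Of 10 endoderm genes 8 passed the filter. At day 6 the Epcam-high set held *Shh*, a ligand of notochord and gut epithelium, at 74.1 CPM, the transport protein gene *Ttr* at 218 CPM and the hindgut factor gene *Cdx2* at 115 CPM. Other genes of the list had their highest level among the 5 marker-high sets elsewhere, *Sox17* (189 CPM) and *Hhex* (94.8 CPM) in Cdh5-high and *Gata4* (89.4 CPM) in Myl7-high cells of the same day. From day 6 to day 11, 2 of the 8 were at least 2-fold higher (*Ttr* and the apolipoprotein gene *Apoa1*), beside 13.1% of all genes, and *Sox17*, *Shh* and *Cdx2* were at least 2-fold lower, as 6.21% of all genes were. *Ttr* was at 2.01, 13.7, 11.3 and 29.6 CPM on the 4 days.

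Of 13 mesoderm genes past the filter, 9 were at least 2-fold higher at day 6 than at day 5, as *Foxc1* and *Foxc2* were, with a median ratio of 3.12. Over all genes 17.3% were higher and 7.31% lower at this step, and the median ratio was 1.15. They were *Tbx6*, *Meox2*, *Tcf15*, *Osr1*, *Gli1*, *Ptch1*, *Prrx1*, *Prrx2* and *Vcam1*. *Fendrr* was the 1 lower. Of 7 endothelial genes 4 were higher (*Kdr*, *Pecam1*, *Dll4* and *Sox7*) and 1 lower (*Etv2*), and of 6 genes listed with *Foxd3* and *Foxd1*, 3 were higher (*Pax3*, *Tfap2a* and *Tcf21*) and 1 lower (*Nanog*).

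Of the 35 other forkhead genes in the feature lists 17 passed the filter, and their median ratios were 0.799, 1.476 and 0.809 for the 3 steps, beside the 0.652, 2.63 and 0.501 of the members. By day, *Foxp1* was at 47.9, 26.4, 132 and 107 CPM, *Foxn3* at 46.6, 41.4, 66.1 and 71.7 and *Foxp4* at 15.3, 12.9, 37.5 and 24.1. *Foxb1*, *Foxh1* and *Foxq1* were at least 2-fold lower at day 5 than at day 4. *Foxq1*, a neighbour of *Foxf2* on the same strand at a distance of 64.8 kb, had its highest level among the 5 marker-high sets in Epcam-high cells of day 4, at 31.4 CPM, and *Foxf2* was not highest there. *Foxd2*, of the same group as *Foxd1* and named after its value was seen, was at 12.0 CPM in Meox1-high cells of day 6, and *Foxs1* had 1, 5, 59 and 778 UMIs on the 4 days.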

How the data were processed

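Gastruloids of the wild type Zx1 line were profiled by 10x 3′ single-cell RNA sequencing, 1 library per day. The authors aligned the reads to mm10 and made the deposited UMI counts per gene and cell with Cell Ranger, 3.1.0 in the submitters' processing notes and the matrix headers of days 4, 5 and 6, and 6.0.1 in the header of day 11, so the counting software differs between day 11 and the other days. The annotation release is not given in the sources used here. Reads of the 3′ kit carry strand, but how overlapping genes were counted is not given either.

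From these counts everything else was computed in Python 3.11.15 (numpy 2.4.6, scipy 1.17.1, pandas 2.3.3, scikit-learn 1.9.0, matplotlib 3.10.9). Cells needed more than 200 genes, under 20% mitochondrial and over 5% ribosomal protein UMIs, and log10 UMIs within 3 median absolute deviations. The 8% of cells with the highest doublet score, from simulated doublets and nearest neighbours, were removed. CPM came from summed UMIs, with exact Poisson 95% intervals, ratios from exact conditional binomial intervals, and shares were exact (Clopper-Pearson). A limit for 0 UMIs was set at 3 counts. Cells of 1 library are not replicates, so no p-value was computed. Between days a gene was counted as changed past 2-fold, among genes with a mean CPM of at least 1. Between sets it was counted past 4-fold, at 1 CPM or more in the set or the other cells. Cells were thinned to 5000 UMIs for shares and pairs, which left out 12 cells of day 6 and 319 of day 11. The code was tested on simulated data.

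The members, gene lists and marker sets were chosen with earlier results of these data known. Genes were named by rule: the members, the set markers, the 3 genes most like each member (by Pearson correlation, among genes that are neither members nor markers, with a mean of at least 10 CPM over the sets), and, of the listed genes, those past the fold or with the 3 highest levels. Alternatives left doublets in, kept all barcodes, averaged per-cell CPM, left mitochondrial and ribosomal genes out of the total, rescaled days by size factors, halved or doubled the set limits, or took cells in 1 set only. A result on the endoderm list is not reported here.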

Additional observations from a re-analysis of the deposited data

How the results depend on the processing

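For day 11 over day 4, keeping all barcodes over 200 genes gave 0.533 for *Foxa1*, 0.0971 for *Foxa2*, 0.559 for *Foxa3* and 0.131 for *Foxf1*, where the reported ratios were 0.249, 0.0341, 0.282 and 0.146, and leaving doublets in gave 0.0488 for *Foxa2*. The mean of per-cell CPM gave 0.163 for *Foxa3*, 1.08 for *Foxc1* and 0.176 for *Foxf1*. Leaving mitochondrial and ribosomal genes out of the total gave 1.05 for *Foxc1*, 2.72 for *Foxc2* and 0.129 for *Foxf1*. Size factors between days, which multiply each of these ratios by 0.770, gave 0.192 for *Foxa1*, 0.916 for *Foxc1*, which turned its direction from 1.19, 2.37 for *Foxc2*, 3.11 for *Foxd1* and 0.112 for *Foxf1*. *Foxa1* and *Foxa2* in Epcam-high cells of day 6 had ratios of 151 and 44.0 with doublets left in and 147 and 46.9 with all barcodes, against 289.5 and 68.6. *Foxa3* in Epcam-high cells of day 5 (36.15) had 26.4 with doublets left in, 23.4 with all barcodes, 22.9 by per-cell mean, 56.2 with the set limit halved and 19.6 with it doubled. *Foxc2* in Cdh5-high cells of day 11 (5.02) had 3.93 with all barcodes, 4.18 by per-cell mean, and 5.76 and 3.83 with the limit halved and doubled. *Foxd1* in Meox1-high cells of day 6 (3.08) had 4.09 by per-cell mean and 3.62 with the limit doubled. *Foxf1* in Twist1-high cells of day 4 (1.15) had 1.36 with the limit halved and 0.976 with it doubled, which turned its direction. Of 1267 values under an alternative, 839 moved by less than their interval, 426 moved by more and these 2 ratios, of *Foxc1* and *Foxf1*, turned, and the causes were not tested. Most of the 1267 were CPM levels or shares, which have no direction, so only the ratios among them could turn. Ratios of consecutive days were not among the 1267. Of those ratios, *Foxc2* of day 5 over day 4 (1.01) and *Foxf1* of day 11 over day 6 (0.957) also turned under an alternative.

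Some calls at 2-fold between days changed with the setting. The 4-fold call of *Foxc2* in Cdh5-high cells of day 11 was lost with all barcodes and with the limit doubled. *Foxa1* of day 11 over day 6 was 0.646 with all barcodes (0.334 reported), and of day 6 over day 5 it was 1.86 by per-cell mean (2.63). *Foxa2* of day 6 over day 5 was 0.396 by per-cell mean (0.628). *Foxa3* of day 11 over day 6 (0.514) was 0.409 by per-cell mean, 0.497 without mitochondrial and ribosomal genes and 0.480 with size factors. *Foxd1* of the same step (0.501) was 0.489 with all barcodes, 0.484 without those genes and 0.468 with size factors. *Foxd1* of day 5 over day 4 was 0.518 by per-cell mean (0.486). Leaving out a replicate could not be done with 1 library a day. No paired analysis was possible because there was 1 library per day. Depth limits what can be said of genes with few UMIs, such as *Foxf2*, *Foxd3* and the *Foxa* genes of day 11, and shares of positive cells move with the thinning depth by construction.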

Other observations

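Some pairs of genes stood close to or apart from what all cells hold, after thinning to 5000 UMIs. *Foxd1* met *Tcf21* in 2 cells of day 6, 1.34% of the 149 Foxd1-positive cells, where 8.95% of all cells held *Tcf21*, and in 23 cells of day 11, 17.04% of 135, where 13.1% did. The *Foxd* and *Foxf* groups met in 26 cells of day 11, 14.0% of the 186 Foxd-positive cells, where 3.04% of all cells were Foxf-positive, and in 4 cells of day 6, 2.47% of 162, where 3.61% were. *Foxf1* met *Twist1* in 115 cells of day 11, 52.0% of the Foxf1-positive cells, where 32.4% of all cells held *Twist1*, and in 81 cells of day 6, 45% of them, where 44.9% did. *Foxc1* met *Twist1* in 398 cells of day 6, 49.4% of the Foxc1-positive cells, beside the same 44.9%. The noncoding gene *Gm12688*, next to *Foxd3* on the opposite strand, was at 2.00 CPM at day 11.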
